A study of Mus musculus with 3 samples.

Results

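The ribosomal protein genes of mouse encode the proteins of the small (40S) and large (60S) ribosomal subunits. They were taken here as the gene symbols that start with Rps or Rpl and a digit, together with Rpsa, Rplp0, Rplp1 and Rplp2. Symbols ending in -ps and a number are named as pseudogenes, although GENCODE lists some, such as Rpl9-ps6 and Rps12-ps3, as protein coding. They were left out, as were Rps6k kinase genes. This gave 87 of the 27998 genes in the files, 34 with Rps symbols (40S) and 53 with Rpl symbols (60S). The symbols also take in 8 paralogs of core members, Rpl6l, which GENCODE lists as a processed pseudogene, and Rps19bp1, which encodes a binding partner of RPS19 and no ribosomal protein. The other 77 are called core members below. Known ribosomal protein genes outside these symbols include Fau and Gnb2l1 (now called Rack1).

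The cells came from bone marrow of C57BL/6J mice and were sorted into 3 populations along the path to B cells. Lymphoid-primed multipotent progenitors (LMPP) were gated as cKit+Sca1+Flt3+IL7Ra-B220-, the common lymphoid progenitors (CLP) as cKit+Sca1+Flt3+/-IL7Ra+B220-, and the pro-B cells as cKit+Sca1-Flt3-IL7Ra+B220+. No transgene or treatment is given for these 3 groups, and the sources used here do not give the age, sex or number of the mice. Each population was 1 library of single cells (10x Chromium, Single Cell 3' v2 chemistry), so that a difference between populations and a difference between droplet runs cannot be told apart, no test was possible, and intervals below cover counting error only.

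Filters left 579 cells of the LMPP library, 948 of the CLP library and 1106 of the pro-B library. They held 4014657, 5967352 and 7367156 unique molecular identifiers (UMIs, each standing for 1 captured RNA molecule). The median cell held 6789 UMIs in LMPP cells, 6258.5 in CLP cells and 5687.5 in pro-B cells, and mitochondrial genes took 2.67%, 3.10% and 2.09% of UMIs. Levels are given as CPM, the UMIs of a gene scaled to a total of 1000000 UMIs per library. Across LMPP, CLP and pro-B the sort genes stood at 279, 300.5 and 5.16 CPM for Flt3, at 3.74, 141 and 104 CPM for Il7r, at 114, 41.1 and 6.11 CPM for Ly6a (Sca1) and at 85.2, 28.3 and 7.47 CPM for Kit, which all 3 gates require. The 10 B lineage markers summed to 56.3, 975 and 16780 CPM across the same libraries. Some genes on marker lists of other cells were found too. The 10 dendritic cell markers summed to 608, 1123 and 375 CPM. The 10 natural killer and innate lymphoid markers summed to 209, 286 and 20.6 CPM, and the 10 myeloid markers to 587, 167 and 82.9 CPM. In pro-B 6 dendritic markers (Siglech and Itgax among them), 6 myeloid markers (Mpo and Elane among them) and 3 natural killer and innate lymphoid markers had 0 UMIs. The pro-B sums thus rest on the remaining genes and do not show that such cells were present. The cell cycle lists were counted by the rule set out below for single members, which also defines a measured gene. In pro-B over CLP, 13 of 15 measured S phase genes and 17 of 17 measured G2/M genes were higher by that rule. Of all 3002 measured genes 51.0% were. The G2/M list summed to 212, 323 and 3978 CPM across LMPP, CLP and pro-B.

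Ribosomal protein messengers are among the most abundant messengers of growing cells, and their translation is controlled together through a pyrimidine-rich start, the 5′ terminal oligopyrimidine (TOP) tract, which the mTOR pathway acts on. Blood progenitors are known to depend on ribosome supply: in humans, mutations in many of these genes cause Diamond-Blackfan anaemia, and in mice loss of Rpl22 impairs the development of T cells. The mouse genome also holds many processed copies of these genes, and a short read from a member and one from its copy can be hard to tell apart, so counts of single members are uncertain where such a copy exists.

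The sequences below show that limit for the pair Rps27 and Rps27rt and for the pair Rps18 and Rps18-ps3, since the levels of these copies differed widely between libraries. They are stretches of the coding bases in the GENCODE M21 transcripts (GRCm38), 5′ to 3′, for Rps27 (chr3:90212522-90213651, minus strand), Rps27rt (chr9:114982366-114982739, minus strand), Rps18 (chr17:33951999-33956001, minus strand) and Rps18-ps3 (chr8:107262793-107263248, minus strand, a processed pseudogene). Capitals mark the base that differs within a pair. Rps27 and Rps27rt were identical over all 341 aligned bases, and Rps18 and Rps18-ps3 differed at 3 of 456 aligned bases.
Rps27: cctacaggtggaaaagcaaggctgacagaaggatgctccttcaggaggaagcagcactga
Rps27rt: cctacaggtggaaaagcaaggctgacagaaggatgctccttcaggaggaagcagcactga
Rps18: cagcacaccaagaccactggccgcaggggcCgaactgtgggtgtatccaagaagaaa
Rps18-ps3: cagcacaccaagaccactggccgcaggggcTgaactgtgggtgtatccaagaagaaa

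TOP tracts lie at the start of the messenger, so the start regions were read for pyrimidine letters. RefSeq promoters (GRCm38.p6) were at hand for 66 members, and the letters CTTTC lay on the strand of the gene within 20 bases before to 30 bases after a start in 23 of them (34.8%), against 7.66% of all 27025 genes. On the opposite strand the same letters were found in 10.6% of members and 7.3% of all genes. The letters CCGGAAG, the core bound by ETS family factors, lay on either strand within 250 bases before to 50 after the start in 39.4% of members and 9.93% of all genes, and AAGATGG, the core bound by YY1, in 15.2% and 7.28%. The last 2 can overlap by their shared letters. Such a match is a description of the letters and shows no binding or use. Below are 15 bases on each side of the start, with CTTTC in capitals, for members at both ends of the later comparison: Rpl28 (chr7:4792950-4792979, plus strand) and Rps10 (chr17:27635230-27635259, minus strand), which were nearly level between pro-B and CLP, Rpl38 (chr11:114668565-114668594, plus strand), the core member lowest in CLP relative to LMPP, and Rps28 (chr17:33824548-33824577, minus strand), the core member lowest in pro-B relative to CLP, which holds no CTTTC in this window.
Rpl28: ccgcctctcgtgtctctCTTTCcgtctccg
Rps10: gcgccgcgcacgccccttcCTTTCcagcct
Rpl38: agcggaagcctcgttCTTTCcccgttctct
Rps28: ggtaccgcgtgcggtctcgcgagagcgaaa

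The family took up a very large part of the RNA of all 3 populations, and a clearly smaller part in pro-B cells. Ribosomal protein genes held 42.7% of UMIs in LMPP cells (95% exact binomial interval 42.66% to 42.76%), 40.6% in CLP cells (40.53% to 40.61%) and 29.3% in pro-B cells (29.22% to 29.29%). The share in CLP was close to that in LMPP, with a log2 ratio of CLP over LMPP of −0.07 (−0.077 to −0.071). The share in pro-B was 1.39-fold lower than in CLP, a log2 ratio of −0.47 (−0.474 to −0.469), and 1.46-fold lower than in LMPP, a log2 ratio of −0.55. Both subunits were lower together: 40S members made up 44.2% of the family's UMIs in LMPP cells, 45.2% in CLP cells and 44.1% in pro-B cells.

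Counted per cell, the lower share in pro-B came with fewer ribosomal protein UMIs and with more of all other UMIs. The median cell held 2925 ribosomal protein UMIs in LMPP cells, 2469.5 in CLP cells and 1446 in pro-B cells. It held 3864, 3681 and 4171 UMIs of all other genes. UMIs per cell depend on the depth of each library, so these numbers of molecules cannot be compared as amounts per cell.

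The difference was spread over nearly the whole pro-B population and was not carried by a few cells. The median cell had a share of 42.7% in LMPP cells (quartiles 40.6% and 44.7%), 40.9% in CLP cells (38.0% and 43.2%) and 27.8% in pro-B cells (24.1% and 31.5%). Of the 1106 pro-B cells, 1097 (99.2%) lay below the median CLP cell, and 69.3% of CLP cells lay below the median LMPP cell. The share also varied more from cell to cell in pro-B, with an SD over cells of 3.83 percentage points in LMPP cells, 4.81 in CLP cells and 5.63 in pro-B cells. Counting error alone would give an SD of 0.638, 0.704 and 0.654, so that the spread over cells was 6.00, 6.84 and 8.61 times that of counting.

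**Figure D1:**
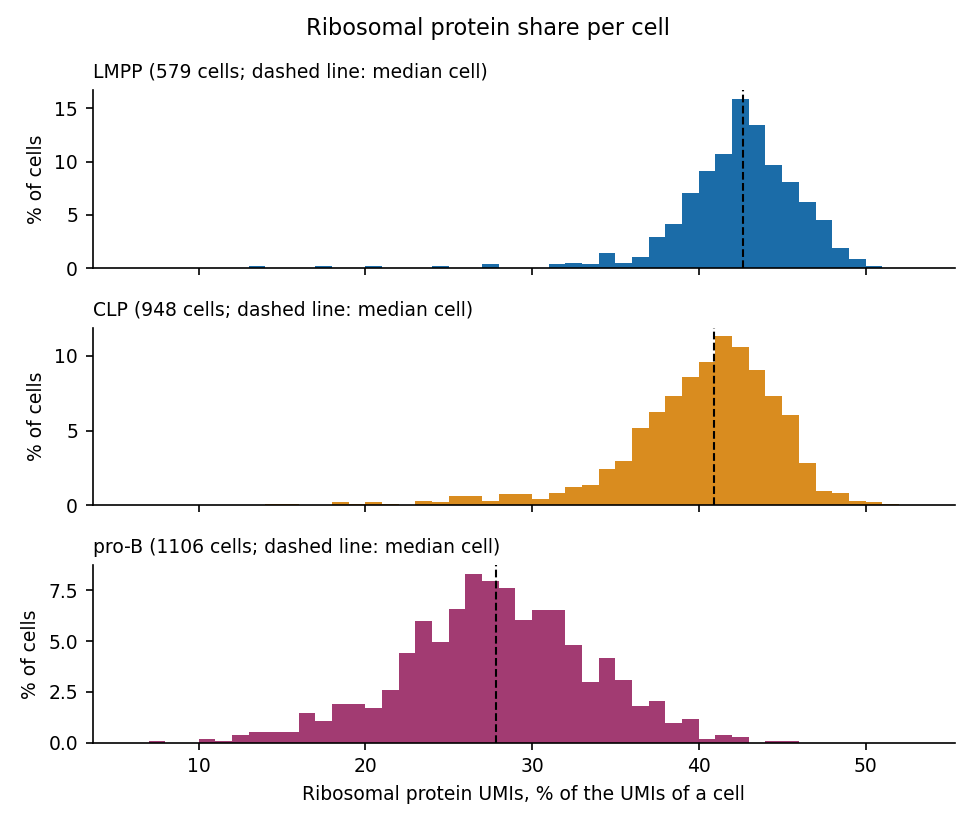
Share of ribosomal protein UMIs per cell (horizontal axis, % of the UMIs of a cell) as the % of cells in bins of 1 percentage point, for 579 LMPP, 948 CLP and 1106 pro-B cells. The dashed lines mark the median cells at 42.7%, 40.9% and 27.8%, and most of the pro-B distribution lies left of the bulk of the other two.

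A tail of low cells was present in the 2 progenitor libraries. A share under 30% was seen in 6 LMPP cells, 42 CLP cells (4.43%) and 718 pro-B cells (64.9%). Of 41 such CLP cells deep enough to be classed, 36 had 3 or more UMIs of markers of dendritic, natural killer and innate lymphoid, T, erythroid, megakaryocyte or stromal cells among 1000 UMIs drawn from each cell, and of all 924 classed CLP cells 367 did. Without such cells the share was 43.0% in LMPP cells, 41.5% in CLP cells and 29.3% in pro-B cells, and the log2 ratio of pro-B over CLP was −0.50. These marker lists hold genes such as Cst3 and Bst2 that progenitors express too, so the class is not a count of foreign cells.

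The share was next set out by depth, cell cycle and B lineage classes. The cycle and B lineage classes rest on genes outside the family, while the depth bins use all UMIs of a cell and so include the family's own. Among pro-B cells the share was lowest in the shallowest cells and highest in the deepest: it was 23.6% in 36 cells under 2000 UMIs, 27.3% at 2000 to 4000 UMIs, 26.5% at 4000 to 8000, 30.1% at 8000 to 16000 and 35.5% in 43 cells over 16000 UMIs. In CLP the range over the same depth bins was 38.3% to 41.3%, and pro-B was lower than CLP in every bin. In LMPP the single cell over 16000 UMIs had 32.4%, below the pro-B value of that bin. Among cells of 4000 to 8000 UMIs only, the share was 42.6% in LMPP cells, 40.3% in CLP cells and 26.5% in pro-B cells.

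The share in pro-B was below those of both other libraries in each cell cycle class. Cells with 0, with 1 or 2, and with 3 or more cycle UMIs among 1000 had shares of 43.0%, 43.0% and 42.1% in LMPP cells, 41.4%, 41.5% and 38.9% in CLP cells, and 28.6%, 29.2% and 29.3% in pro-B cells. Cells with no cycle UMI numbered 174 in LMPP cells, 220 in CLP cells and 104 in pro-B cells, and among these the log2 ratio of pro-B over CLP was −0.53. The median of these 104 pro-B cells held 3096 UMIs.

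The lower share was not seen among CLP cells that already carried B lineage transcripts. CLP cells with 0, with 1 or 2, and with 3 or more B lineage UMIs among 1000 (411, 302 and 211 cells) had shares of 40.0%, 41.0% and 41.1%. All 1106 pro-B cells had 3 or more such UMIs and a share of 29.3%. Among cells of that class alone, pro-B stood at 29.3% and CLP at 41.1%.

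**Figure D2:**
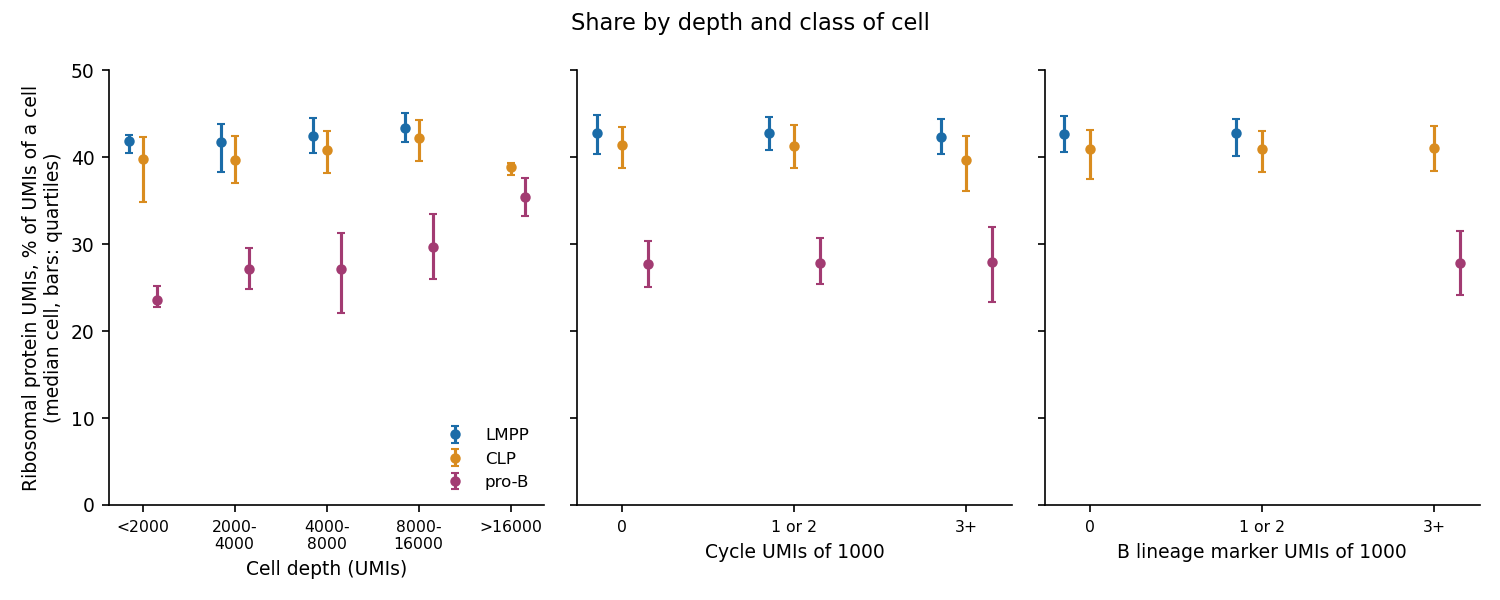
Share of ribosomal protein UMIs in the median cell (vertical axis, %; bars, quartiles over cells) by depth of the cell, by cycle UMIs and by B lineage marker UMIs among 1000 UMIs drawn per cell; classes under 4 cells are left out. The median pro-B cell lies below those of the other libraries in every class, nearest to CLP in cells over 16000 UMIs, where CLP has 4 cells.

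Member by member, CLP and LMPP were nearly alike. A member was counted as lower when its CPM was 0.8 of that in the other library or less, as higher when the same held the other way round, and as measured when the higher of both libraries had at least 50 CPM, as for 84 of the 87 members. In CLP over LMPP, 0 members were lower, where 14.9% of all 2570 measured genes were, and 1 was higher, where 19.5% of all genes were. The median log2 ratio was −0.09 over members and −0.01 over all measured genes, and 73 of 84 members lay below 0. With the UMIs of near-identical copies outside the symbols, described below, added to the parent genes, 63 lay below 0 and 21 above. Those above included Rplp0 (0.12), Rpl9 (0.11), Rpl23a (0.18), Rpl35 (0.15) and Rps18 (0.12). The 77 core members ranged from −0.31 (Rpl38) to 0.25 (Rps28). The one higher member was Rps27rt, the copy of Rps27 shown above, at a log2 ratio of 1.58. It was also the one member past 2-fold upward, where 4.71% of all genes were, and 0 members were past it downward, where 2.72% were.

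In pro-B most members were lower than in CLP, and among all genes with at least 50 CPM more were higher than lower. Of 84 measured members, 52 were lower by this rule, where 24.3% of all 3002 measured genes were, and 1 was higher, where 51.0% were. The median log2 ratio was −0.41 over members and 0.34 over all measured genes. The 2-fold mark was passed downward by 4 members, where 9.86% of all genes passed it, and upward by 0, where 20.8% did. Scaling each library by its UMIs outside ribosomal protein and mitochondrial genes moves every log2 ratio of pro-B over CLP by −0.29 (CLP over LMPP by −0.04, pro-B over LMPP by −0.33) and gave 79 lower members, where 33.8% of all genes were lower and their median was 0.05. Median-of-ratios size factors move them by 0.10 and gave 41, where 21.3% of all genes were lower. Among all genes with 10 or more UMIs over both libraries, 52 of 85 members and 39.9% of genes were lower, and the median of all these genes was −0.08. Set against LMPP, 65 members were lower in pro-B, where 23.3% of genes were, with a median log2 ratio of −0.50, and 5 passed 2-fold downward, where 10.1% of genes did. The comparisons of pro-B with CLP and with LMPP share the pro-B library and are not independent.

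The members varied in how far they were lower, and the spread was wider than between the 2 progenitors. Over the 77 core members the SD of the log2 ratio was 0.23 in pro-B over CLP and 0.08 in CLP over LMPP. All 77 were below 0 in pro-B over CLP, from −1.34 (Rps28) to −0.02 (Rpl7a), although Rpl28, Rpl7a, Rpl8 and Rps10 lay above 0 with median-of-ratios size factors. The median was −0.42 over 40S and −0.37 over 60S members. The medians of the subunits thus lay close together, within a wide spread of single members.

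**Figure D3:**
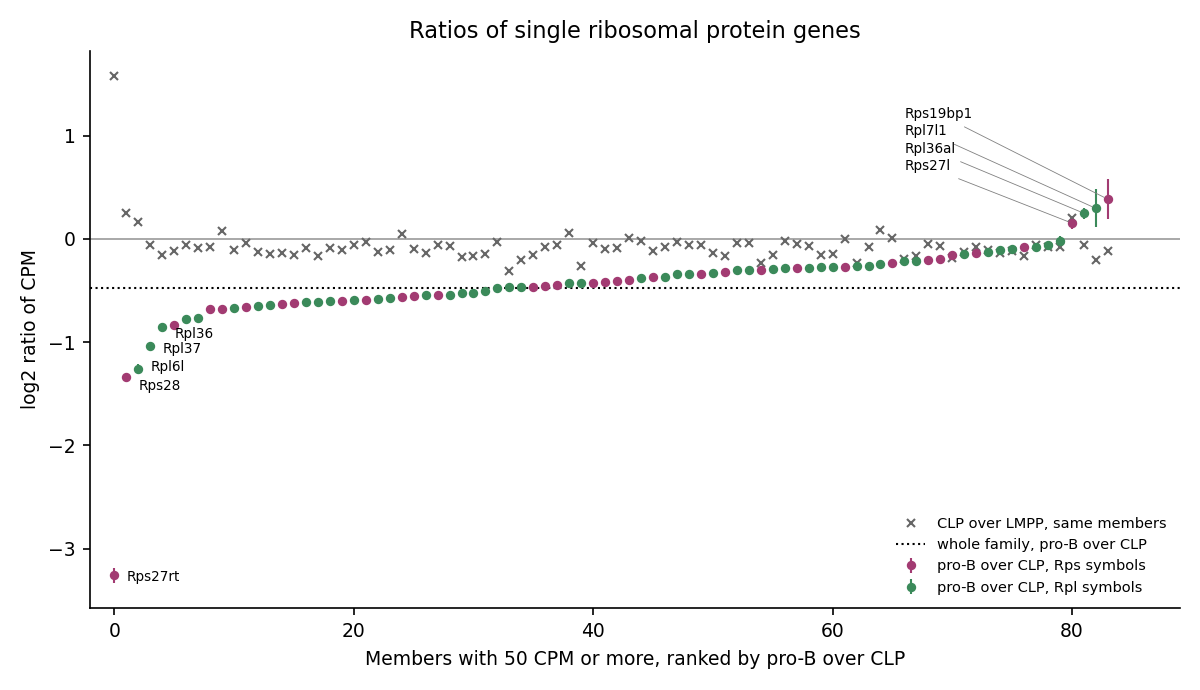
Log2 ratio of CPM (vertical axis) for the 84 members with 50 CPM or more, ranked by pro-B over CLP (dots, 40S and 60S symbols in 2 colours, with 95% counting intervals) with CLP over LMPP for the same members (crosses). Most dots lie around the family's −0.47, most crosses lie just under 0, and Rps27rt stands apart in both.

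Among core members, Rps28 and Rpl37 were the lowest in pro-B relative to CLP. Rps28 (GRCm38, chr17:33819027-33824562, minus strand), which encodes a protein of the 40S head near the messenger exit, had 7900 CPM in LMPP cells, 9408 in CLP cells and 3717 in pro-B cells. It was 2.53-fold lower in pro-B than in CLP, and its level in CLP was above that in LMPP by less than the rule. Rpl37 (chr15:5116645-5119140, plus strand), a 60S protein gene, had 7508, 7199 and 3499 CPM, 2.06-fold lower in pro-B than in CLP. Its levels in LMPP and CLP were close to each other.

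Next in order came Rpl36, with 5218 CPM in LMPP cells, 4672 in CLP cells and 2582 in pro-B cells (1.81-fold lower in pro-B than in CLP), and Rps14, a 40S platform protein, with 8859, 8167 and 4565 CPM (1.79-fold lower). Rpl32 had 9547, 9178 and 5341 CPM and was 1.72-fold lower in pro-B than in CLP. For each of these the pro-B library was the low one and the 2 progenitor libraries lay near each other. This order depends on the copies described below. With their UMIs added, the log2 ratio of pro-B over CLP was −0.97 for Rpl36, −0.94 for Rpl35 and −0.90 for Rps18, beside −0.84 for Rps14. Rpl6l was also low, with 1480 CPM in LMPP cells, 1658 in CLP cells and 692 in pro-B cells, but as a processed pseudogene that matches Rpl6 in 98.7% of aligned bases it belongs with the copies below.

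The other end held core members whose share was nearly the same in pro-B and CLP. Rpl7a had 1491, 1408 and 1391 CPM across LMPP, CLP and pro-B, Rpl28 had 3661, 3456 and 3320 CPM, and Rps10 had 2812, 2502 and 2362 CPM. Rplp2, an acidic protein of the P stalk, had 5644, 5236 and 4800 CPM. Of these, Rplp2 differed most, at 1.09-fold lower than in CLP. None of these 4 was lower by the rule, but among cells with 0 cycle UMIs Rpl28 (−0.33) and Rplp2 (−0.40) were, while Rpl7a (0.00) and Rps10 (−0.07) were not. Rpl7a has 4 of the copies described below, and with their UMIs added it stood at 1549, 1614 and 1428 CPM. Its log2 ratio of pro-B over CLP was then −0.18, still within the rule.

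The base of the P stalk, which recruits the GTPases of translation, is Rplp0. It had 7376 CPM in LMPP cells, 7196 in CLP cells and 5666 in pro-B cells, 1.27-fold lower in pro-B than in CLP. Rplp1 had 5883, 4910 and 3661 CPM, 1.34-fold lower. Adding the UMIs of their copies Gm8730 and Gm10073 gave log2 ratios of −0.60 for Rplp0 and −0.55 for Rplp1. With Rplp2 short of the rule, 2 of the 3 stalk genes were lower in pro-B by the rule. Of all measured members 52 of 84 were, and of all measured genes 24.3%. Among cells with 0 cycle UMIs all 3 stalk genes were lower, with log2 ratios of −0.60 for Rplp0, −0.74 for Rplp1 and −0.40 for Rplp2.

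Rpl5, Rpl11 and Rpl22 are 3 members known for signals outside the ribosome, and the list is not complete. By the rule 0 of these 3 were lower, beside 52 of the 84 measured members and 24.3% of all measured genes. Rpl5 and Rpl11 bind 5S ribosomal RNA, and when ribosome assembly fails this particle binds MDM2 and so raises p53. Rpl5 had 1573, 1418 and 1173 CPM and Rpl11 4501, 4040 and 3343 CPM across LMPP, CLP and pro-B, a log2 ratio of −0.27 for each in pro-B over CLP. Rpl22 had 1898, 1721 and 1592 CPM, a log2 ratio of −0.11. These calls depended on the setting: Rpl5 was at −0.42 among cells with 0 cycle UMIs, and Rpl11 at −0.50 with the UMIs of its copies Gm10036 and Gm5093 added, both past the rule. With these copies Rpl11 stood at 4868, 4947 and 3507 CPM across the libraries, so that CLP and not LMPP was the highest. Scaled by UMIs outside ribosomal protein and mitochondrial genes, Rpl5 (−0.56), Rpl11 (−0.56) and Rpl22 (−0.40) were all past the rule.

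Among the 17 members mutated in human Diamond-Blackfan anaemia, a failure of red cell production, 9 were lower in pro-B than in CLP, beside 52 of the 84 measured members and 24.3% of all measured genes. Rps19, the gene most often mutated, was not among them, with 9494 CPM in LMPP cells, 9511 in CLP cells and 7878 in pro-B cells, a log2 ratio of −0.27 in pro-B over CLP. Rps24 had 7988, 7786 and 4929 CPM (1.58-fold lower), Rps7 had 6532, 5922 and 3823 CPM (1.55-fold lower) and Rpl35 had 6435, 6036 and 3941 CPM (1.53-fold lower). With the UMIs of their copies added, the log2 ratio of pro-B over CLP was −0.80 for Rps7 and −0.94 for Rpl35. Rps26 was near Rps19, at −0.20, and at −0.35 with the UMIs of its copy Rps26-ps1 added, past the rule. In CLP over LMPP none of the 17 was lower or higher by the rule.

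The 3′ counting gives levels per molecule and without regard to length. Among the members with the highest levels, Rps29 had 11134.5 CPM in LMPP cells, 10704 in CLP cells and 7342 in pro-B cells, 1.46-fold lower in pro-B than in CLP. Rpl41, which encodes a very short 60S peptide, had 9251, 9101 and 7474 CPM and was 1.22-fold lower in pro-B than in CLP, short of the rule. Its log2 ratio was −0.28, and it was −0.36 with the UMIs of its copy Gm10076 added and −0.55 among cells with 0 cycle UMIs, both past the rule.

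Ribosomal protein genes outside the symbols lay nearer to 0 than the median member. Fau had 4489, 4072 and 3498 CPM across LMPP, CLP and pro-B, and Gnb2l1 had 1413, 1263 and 1128 CPM. Their log2 ratios of pro-B over CLP were −0.22 and −0.16. Fau encodes a ubiquitin-like protein fused to the ribosomal one, and Gnb2l1 encodes the scaffold RACK1 on the 40S head. Neither was lower by the rule.

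The ratios of members with and without these promoter letters overlapped. The 22 measured members with CTTTC at the start had a median log2 ratio of −0.30 in pro-B over CLP, and the 41 without it −0.38. With CCGGAAG the median was −0.30 over 25 members and without it −0.37 over 38. Both groups held members lower by the rule, 10 of 22 with CTTTC and 27 of 41 without. These and the next counts stand beside 52 of all 84 measured members and 24.3% of all measured genes. The 10 measured members with AAGATGG had a median of −0.22, with 4 lower by the rule, and the 53 without it −0.38, with 33 lower.

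Of 5 measured paralogs, Rps27rt and Rpl22l1 were lower in pro-B than in CLP by the rule. Of all measured members 52 of 84 were, and of all measured genes 24.3%. Rps27l (chr9:66946086-66949516, plus strand), a paralog of Rps27 that p53 activates, had 546 CPM in LMPP cells, 628 in CLP cells and 698 in pro-B cells. Its partner Rps27 had 8584, 9022 and 5647 CPM. Per 100 UMIs of Rps27 there were 6.36 of Rps27l in LMPP cells, 6.97 in CLP cells and 12.4 in pro-B cells. Within pro-B the ratio was 14.2 in cells with 3 or more cycle UMIs and 5.29 in cells with none. Rps27rt, identical to Rps27 where they align, was not counted with Rps27 here. It held 9.17, 26.0 and 4.35 UMIs per 100 of Rps27 across the libraries, so the small step from LMPP to CLP is uncertain. Rps27l was higher by the rule in pro-B over LMPP, with a log2 ratio of 0.35. It was the only member that was, where 51.5% of all 2995 measured genes were. In pro-B over CLP its log2 ratio was 0.15, and it was −0.43 among cells with 0 cycle UMIs and −0.05 with equal weight per cell. In pro-B over LMPP the direction turned round, to −0.33, among cells with 0 cycle UMIs and shrank to 0.02 when each library was scaled by its UMIs outside ribosomal protein and mitochondrial genes.

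For Rpl22l1 the share relative to its partner was smaller in pro-B. The gene (chr3:28805436-28807424, plus strand) is the paralog of Rpl22, which in mouse lymphoid cells represses it. It had 1830 CPM in LMPP cells, 1698 in CLP cells and 1065 in pro-B cells, 1.59-fold lower in pro-B than in CLP. As Rpl22 itself differed little, Rpl22l1 stood at 96.4 UMIs per 100 of Rpl22 in LMPP cells, 98.6 in CLP cells and 66.9 in pro-B cells. The 2 progenitors were thus near 1 to 1, and pro-B below it. In cells with 3 or more cycle UMIs and in cells with none the ratio was 113.5 and 83.8 in LMPP cells, 112.7 and 86.6 in CLP cells, and 68.9 and 56.9 in pro-B cells, so pro-B was the lowest library in both classes.

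Rpl36al, a paralog of Rpl36a on another chromosome, differed between libraries by less than the rule. It had 857 CPM in LMPP cells, 819 in CLP cells and 973 in pro-B cells, with a log2 ratio of 0.25 in pro-B over CLP that became −0.04 when scaled by UMIs outside ribosomal protein and mitochondrial genes. Its partner Rpl36a had 4526, 4136 and 2628 CPM, 1.57-fold lower in pro-B than in CLP. There were 18.9 UMIs of Rpl36al per 100 of Rpl36a in LMPP cells, 19.8 in CLP cells and 37.0 in pro-B cells.

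The rest of the paralogs were rare. Rpl7l1, which in yeast has a counterpart in ribosome assembly, had 77.5, 67.2 and 82.4 CPM, and Rps19bp1 had 63.8, 58.8 and 76.7 CPM across LMPP, CLP and pro-B. Rps19bp1 was the one member higher in pro-B than in CLP by the rule, with a log2 ratio of 0.38, which was 0.10 with the scaling outside ribosomal protein and mitochondrial genes. Rpl39l, known from testis, had 0, 1 and 2 UMIs. Rpl10l, also known from testis, had 0 UMIs in each library, where a count of 0 allows up to 0.747, 0.503 and 0.407 CPM.

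Rpl3l (chr17:24727820-24736143, plus strand), the paralog of Rpl3 known from heart and skeletal muscle, was rare but uneven. It had 2 UMIs in LMPP cells, 33 in CLP cells and 112 in pro-B cells, or 0.498, 5.53 and 15.2 CPM. Within pro-B it was concentrated in cells with few cycle transcripts: cells with 0, with 1 or 2, and with 3 or more cycle UMIs had 24, 37 and 51 of its UMIs, or 69.5, 42.7 and 8.28 CPM (exact Poisson intervals 44.5 to 103, 30.1 to 58.9 and 6.17 to 10.9 CPM). In these classes the median cell held 3096, 2936 and 7762 UMIs, and the part of depth in this difference was not tested.

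Other members were set against cycle class in the same way, in contrasts chosen after values had been seen. Rps27l was higher by the rule in cells with 3 or more cycle UMIs than in cells with none in all 3 libraries. Its CPM in cells with 0, with 1 or 2, and with 3 or more cycle UMIs was 499.6, 499.3 and 645 in LMPP cells, 535, 611 and 708 in CLP cells, and 396, 477 and 746 in pro-B cells. Among cells with no cycle UMI pro-B was thus the lowest library, and among cells with 3 or more it was not. Rpl22l1 had 2019 CPM in cells with 3 or more cycle UMIs and 1648 in cells with none in LMPP cells, 1793 and 1551 in CLP cells, and 1090 and 926 in pro-B cells, each difference within the rule.

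More members and more genes in all differed with cycle class within pro-B than within the progenitors, and whether members did so beyond other genes was not tested. Comparing cells with 3 or more cycle UMIs with cells that had none, 6 of 85 measured members were lower and 11 higher by the rule in pro-B, where 38.8% of all 3132 genes were lower and 30.4% higher. In CLP it was 0 lower and 2 higher of 84, where 15.6% of genes were lower and 25.4% higher. In LMPP it was 0 and 2 of 84, where 17.7% were lower and 21.7% higher. The class with no cycle UMI held 104 cells with a median of 3096 UMIs in pro-B. In CLP it held 220 cells with a median of 5714 UMIs, and in LMPP 174 cells with 6052. The counts in pro-B thus carry more counting error, and its part in the larger number of calls was not tested. The 85 members measured in pro-B include Rpl3l, which reached 50 CPM only in cells with no cycle UMI. It could thus be counted only as lower, and is 1 of the 6. In pro-B Rps2 had 3999 CPM in cells with 3 or more cycle UMIs and 2419 CPM in cells with none, and Rps27 had 5249 and 7499 CPM. In CLP the same classes had 4182 and 4002 CPM of Rps2 and 8331 and 9682 CPM of Rps27.

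**Figure D4:**
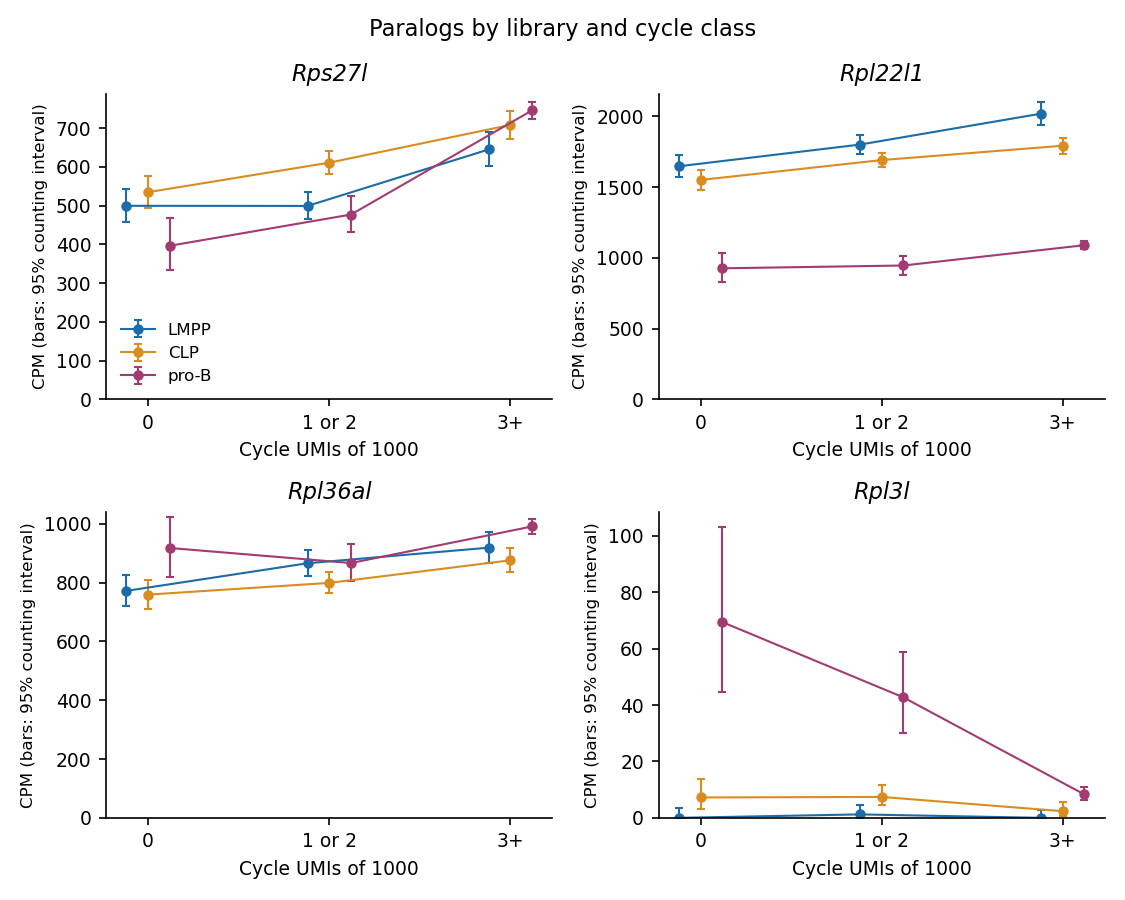
CPM (vertical axes, from 0) of the paralogs Rps27l, Rpl22l1, Rpl36al and Rpl3l in cells with 0, with 1 or 2, and with 3 or more cycle UMIs among 1000, by library; bars are exact 95% Poisson intervals. Rps27l is highest in cells with 3 or more cycle UMIs in each library, Rpl22l1 is lowest in pro-B in each class, and Rpl3l is highest in pro-B cells with none.

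B lineage class made little difference to single members within CLP. Comparing CLP cells with 3 or more B lineage UMIs with those that had none, 0 of 84 members were lower and 0 higher by the rule, where 16.4% of all 2547 genes were lower and 12.6% higher. The median log2 ratio was 0.03, and the members ranged from −0.20 (Rps27l) to 0.30.

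Copies of members among other genes differed between libraries far more than members did. A search of the GENCODE M21 transcripts, made after the data had been seen, found 41 genes outside the symbols that match a member in 90% or more of at least 200 bases and over at least 50% of their own length. They match 26 members, and 28 of them had 50 CPM or more in a library. All copies together held 2.19% of UMIs in LMPP cells, 2.91% in CLP cells and 1.02% in pro-B cells. Symbols with -ps, 11 of them measured, were all 2-fold or more lower in pro-B than in CLP, where 9.86% of all measured genes were. Their median log2 ratio was −2.02. Of the 11, Rps18-ps3 (1238 CPM in CLP and 41.5 in pro-B) and Rpl7a-ps5 (186 and 29.3) were measured only through CLP. With all copies the family's share was 44.9%, 43.5% and 30.3%.

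Set against their own parent gene, the 28 copies with 50 CPM or more in a library were mostly highest in CLP and all lowest in pro-B. Per 100 UMIs of the parent, the median of the 28 copies was 6.97 in LMPP cells, 15.6 in CLP cells and 4.11 in pro-B cells. The order CLP, LMPP, pro-B was found for 23 of the 28, and for the other 5, which were Gm10020, Gm10076, Gm10709, Gm5786 and Rps2-ps6, LMPP came before CLP. The lowest library was pro-B for all 28. Some copies reached 50 CPM only in CLP, such as Gm10263 (45.1, 422 and 13.7 CPM across LMPP, CLP and pro-B) and Gm10269 (35.6, 302 and 9.50). Gm5786 (63.8, 46.4 and 24.6) and Rps2-ps6 (51.8, 39.4 and 16.3) reached it only in LMPP. The filter thus favours copies high in 1 library, and the counts and medians describe the selected copies only. The sources used here do not give the read length or the treatment of reads that match 2 genes alike, nor whether either was the same for the 3 libraries. A difference of that kind and a difference between populations cannot be told apart for the copies, nor for single members that share reads with a copy.

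The pairs shown at the start differed widely. Rps18-ps3 had 603 UMIs in LMPP cells, 7385 in CLP cells and 306 in pro-B cells, or 1.89, 16.5 and 0.888 per 100 UMIs of Rps18. Rps27rt had 3159, 13993 and 1808 UMIs, or 9.17, 26.0 and 4.35 per 100 of Rps27, although both sequences are identical over their aligned length. Rpl9-ps6, which matches Rpl9 at all but 1 of 692 aligned bases, had 10.5, 30.6 and 6.59 UMIs per 100 of Rpl9. Rps12-ps3, identical to Rps12 where it aligned, had 54.1, 63.1 and 34.0 per 100. Named after values were seen, Gm10263, a processed pseudogene that matches Rps28 in 99.0% of 300 bases, had 0.571, 4.49 and 0.369 per 100 of Rps28; with its UMIs added, Rps28 stood at 7945, 9830 and 3731 CPM.

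Within a library these ratios hardly moved with the kind of cell. In CLP cells with 3 or more B lineage UMIs and in those with none, Rps18-ps3 stood at 17.2 and 16.3 UMIs per 100 of Rps18, Rps27rt at 26.4 and 25.4 per 100 of Rps27, and Rpl9-ps6 at 30.6 and 30.5 per 100 of Rpl9. In pro-B cells with 3 or more cycle UMIs and in those with none, Rps27rt stood at 4.35 and 4.82 per 100 of Rps27 and Rps18-ps3 at 0.878 and 0.805 per 100 of Rps18. So for these copies the ratios differed far more between libraries than between these classes of cell within them. When the UMIs of copies outside the symbols were added to their parents, 56 members were lower in pro-B than in CLP instead of 52. All 52 were among them. Rps27rt and Rpl6l, which are members themselves, stayed separate from Rps27 and Rpl6, so pooling these pairs was not tested.

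**Figure D5:**
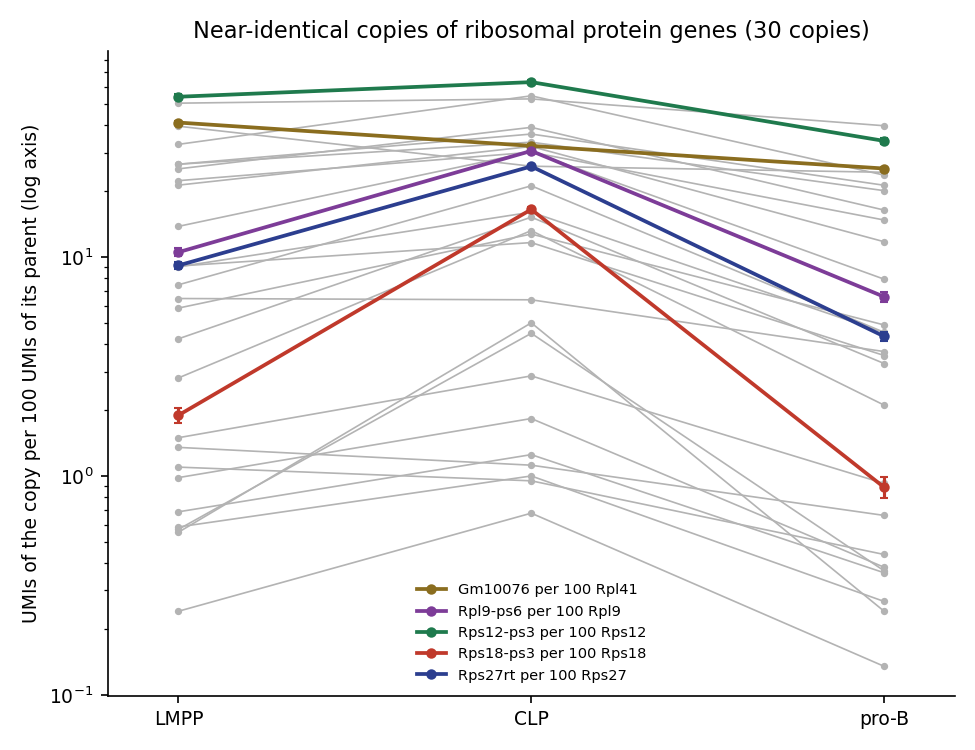
UMIs of a copy per 100 UMIs of the member it matches (vertical log axis) in the LMPP, CLP and pro-B libraries, for 28 copies outside the symbols with 50 CPM or more plus Rps27rt and Rpl6l; 5 are coloured, with 95% counting intervals. Most lines peak in CLP and all end lowest in pro-B.

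Other genes of translation were less uniformly lower in pro-B than the ribosomal proteins. In the lists that follow, counts stand beside 24.3% lower and 51.0% higher of all measured genes. Of 16 measured genes with TOP messengers or roles beside them, 6 were lower and 2 higher in pro-B than in CLP, with a median log2 ratio of −0.10. Of the 5 elongation factor genes 4 were lower and 1 was higher. Eef1a1, which carries transfer RNA to the ribosome, had 8307 CPM in LMPP cells, 7769 in CLP cells and 5617 in pro-B cells, a log2 ratio of −0.47. Eef2, the translocase, stood at −0.54, Eef1g at −0.57 and Eef1b2 at −0.71, while Eef1d had 309, 243 and 358 CPM and stood at 0.56. Tpt1, whose messenger starts with a TOP tract as well, had 2608, 2438 and 2876 CPM, a log2 ratio of 0.24, within the rule.

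A list of initiation factors without a known TOP start also held Eif4ebp1 and Eif4ebp2, which encode eIF4E-binding proteins. Of its 12 measured genes, 2 were lower and 7 higher in pro-B than in CLP. Their median log2 ratio was 0.43, near the 0.34 of all measured genes. Eif1, which guards start codon choice, had 1233, 1111 and 1742 CPM across LMPP, CLP and pro-B. Genes that build ribosomes were mixed, with 3 lower and 5 higher of 15 and a median of 0.09, and Ncl, which encodes nucleolin, had 448, 439 and 591 CPM. Of 11 genes of RNA polymerase I, which makes the ribosomal RNA, and its factors, 1 was lower and 4 were higher, with a median of 0.20. The list they came from includes subunits shared with other RNA polymerases, such as Polr2e. Measured beside these lists, the ribosomal proteins had the lowest median, at −0.41.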

How the data were processed

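Single cells of 3 sorted populations were profiled, 1 library each. The authors deposited whole-number UMI counts for every gene and barcode. Per the submitters' processing notes these come from Cell Ranger and mm10 (version and annotation not given in the sources used here). Cells needed 500 genes and no more than 10% mitochondrial UMIs, which kept 579 of 599 (LMPP), 948 of 979 (CLP) and 1106 of 1123 (pro-B). Libraries shared 1 to 3 barcode sequences per pair, and scrublet (scanpy 1.11.5) called 30, 14 and 2 cells, which were kept. Counts were summed per library and divided by its total (CPM). Intervals are exact (95%; Clopper-Pearson or Poisson). Cell classes were drawn from 1000 UMIs per cell outside ribosomal protein and mitochondrial genes, which left out 3, 24 and 0 shallow cells. Copies were found with blastn (BLAST+ 2.17.0); calculations used Python 3.11.15 and SciPy 1.17.1 and were tested on simulated data. Exons of 1 member (Rpl13a) overlapped another gene on its strand. Members, lists and classes were chosen with earlier results of these data known. Named members were the 8 highest, the 6 highest and 6 lowest ratios of each step, and all members of the family lists; others were named after their values were seen. The iLS cells described in the labels were not analysed here. Results for some of the named genes are not reported here.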

Additional observations from a re-analysis of the deposited data

How the results depend on the processing

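No paired analysis was possible because each population is 1 library and the labels give no replicate numbers; leaving out a replicate was not possible for the same reason. The lower share of pro-B kept its direction under every alternative run. For CLP over LMPP the log2 ratio of the ribosomal protein share was −0.0536 in cells with 0 cycle UMIs, −0.0799 in cells of 4000 to 8000 UMIs, −0.0773 with equal weight per cell, −0.0500 without cells with 3 or more UMIs of other cell types, −0.0705 without scrublet calls, −0.0548 with -ps symbols added and −0.0464 with copies found by sequence added, an alternative chosen after seeing the data. In the same order, but for scrublet calls, it was −0.53, −0.61, −0.53, −0.50, −0.50 and −0.52 for pro-B over CLP, and −0.59, −0.69, −0.61, −0.55, −0.56 and −0.57 for pro-B over LMPP. With all barcodes pro-B over CLP was −0.47, and without scrublet calls pro-B over LMPP was −0.54. Members lower in CLP than in LMPP, 0 as reported, were 1 with equal weight per cell, 2 in cells with 0 cycle UMIs, 1 in cells of 4000 to 8000 UMIs and 1 with totals outside ribosomal protein and mitochondrial genes. That last scaling gave 79 members lower in pro-B than in CLP, where median-of-ratios size factors gave 41, all among the 52 reported. In cells with 0 cycle UMIs 48 of the 52 were lower, and Rps27l reversed in pro-B over LMPP, to −0.33. Of 1164 values of named members under alternatives, 697 stayed within their counting interval, 466 left it and 1 past the rule changed sign. A further 19 values within the rule changed sign too, so 13 of 130 ratios of named members had a sign that depended on an alternative, Rps27l (0.15 to −0.43) and Rpl36al (0.25 to −0.04) in pro-B over CLP among them; the cause was not tested. Over a whole library a level of 50 CPM stands for at least 201 UMIs, while Rpl3l and Rpl39l rest on fewer. Within classes of cells, which hold only part of the UMIs of a library, 50 CPM can stand for far fewer. Calls by the rule within such classes rest on smaller counts.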
